A study of Mus musculus with 8 samples.

Results

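Macrophage transcripts were followed in endometrium of mice with a mutant thyroid hormone receptor, through 10 genes picked by symbol: *Csf1r* and its ligand gene *Csf1*, the general macrophage genes *Cd68*, *Adgre1* and *Aif1*, the complement genes *C1qa*, *C1qb* and *C1qc*, and the scavenger receptor genes *Mrc1* and *Cd163*. Each symbol matched 1 of the 52325 genes in the deposited counts, and 9 of the 10 passed the filter on low counts that left 18174 genes for testing, with *Cd163* left out. Endometrium was cut by laser out of frozen sections of the uterus from 4 WT and 4 *Thra1PV/+* mice, and the latter carry the dominant negative PV mutation in 1 germline allele of *Thra*. Females of both genotypes were matched at metestrus, and no age was given for these mice in the sources used here. Separate animals were not named in the labels, so the p-values measure the spread between these libraries.

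The libraries held between 48791602 and 59818887 estimated counts. The PV and WT transcripts of *Thra* cannot be told apart in these counts, and *Thra* ranged from 45.8 to 127 CPM (counts scaled to library size, with TMM normalization) in *Thra1PV/+* and from 47.4 to 110 CPM in WT endometrium. The captured tissue was not the same in all libraries. Summed over 6 smooth muscle genes, WT library 1 had 12640 CPM, and the other WT libraries had at most 1094 CPM and the *Thra1PV/+* libraries 125 to 638 CPM. *Thra1PV/+* library 2 had the lowest sum of 8 stromal genes (449 CPM, against 1077 to 5963 CPM in the other 7 libraries) and the highest sum of 8 neutrophil genes (750 CPM, against at most 317 CPM). Of that neutrophil sum, *S100a9* held 412 CPM and *S100a8* 188 CPM. *Ly6g* had 0.832 CPM there and was highest in WT library 3 (2.13 CPM), and all other genes of the list were highest in *Thra1PV/+* library 2. In tissue of this kind, fewer macrophages and less RNA of a gene per macrophage cannot be told apart.

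Macrophages are resident phagocytes of the endometrium, where they clear dying cells and debris as the lining is remodelled through the cycle. Their survival depends on the receptor tyrosine kinase encoded by *Csf1r*, which binds the growth factors encoded by *Csf1* and *Il34*. *Csf1* comes largely from stromal, epithelial and endothelial cells, so its transcript reports on the cells that feed macrophages. *C1qa*, *C1qb* and *C1qc* encode the chains of C1q, the recognition molecule of the classical complement pathway, and in most tissues are transcribed mainly by macrophages. *Mrc1* encodes the mannose receptor CD206, and *Cd163* the receptor for haptoglobin and hemoglobin complexes, both known from tissue-resident macrophages.

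None of the 9 tested macrophage genes passed the thresholds used here, at least 2-fold in either direction with an adjusted p-value up to 0.1. Over all 18174 genes, edgeR's quasi-likelihood test called 0.99%, and 9.77% had an unadjusted p-value under 0.05, where the macrophage genes again had 0 of 9. DESeq2 called 0 of them, against 3.58% of the genes to which it gave an adjusted p-value, and it too gave 0 at an unadjusted p-value under 0.05. The log2 fold change of *Thra1PV/+* over WT was above 0 for 7 genes and below 0 for *Csf1* and *Mrc1*, with a median of 0.24 beside -0.05 over all tested genes. The standard errors were 0.37 to 0.56 on the log2 scale. Differences below 2-fold are left uncalled by the threshold itself. With standard errors of this size and 4 libraries a genotype, some above 2-fold could go uncalled too. In log2 CPM, the libraries of the 2 genotypes overlapped for all 9 genes, where 6.04% of all tested genes showed no overlap.

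**Figure D1:**
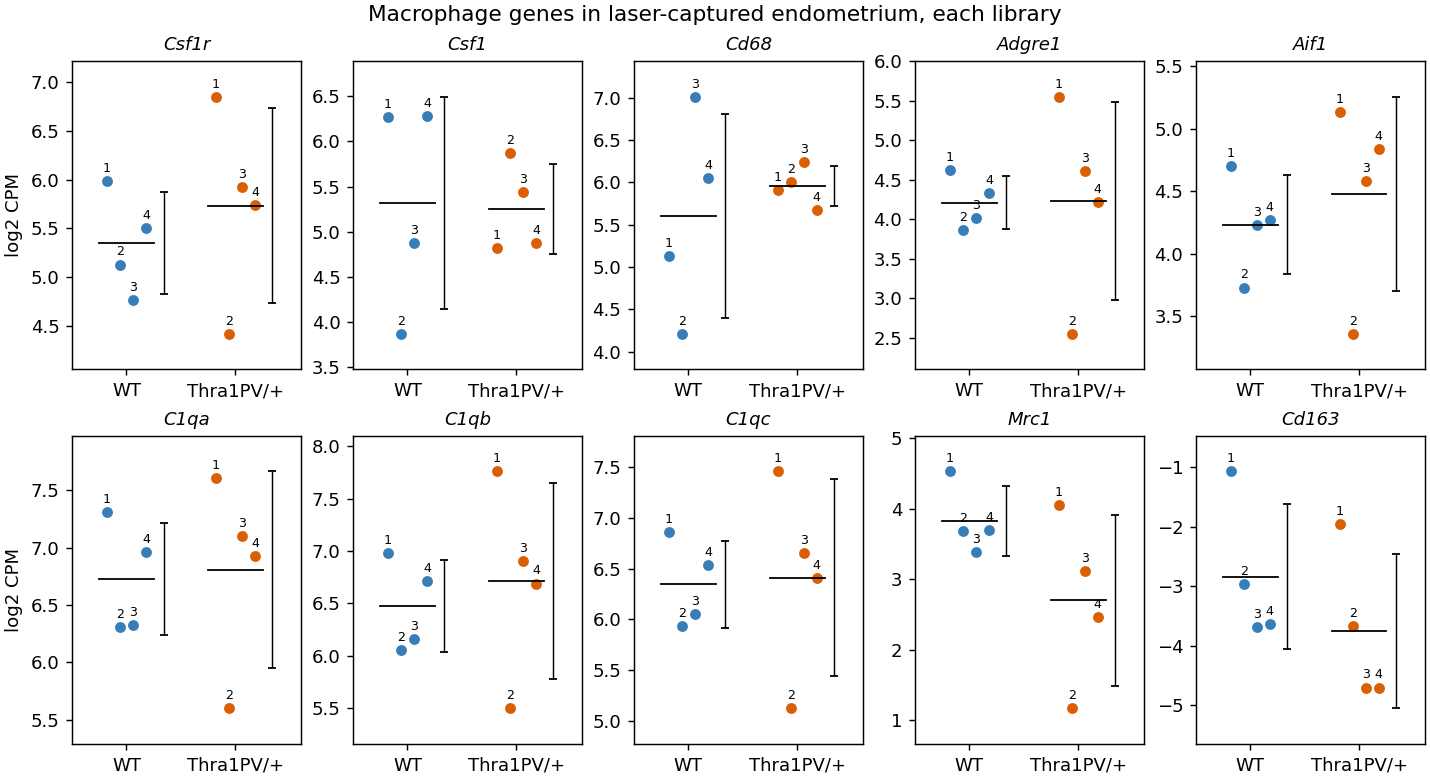
Log2 CPM (prior count 2; each panel has its own axis) of the 10 macrophage genes in every library of WT (blue) and *Thra1PV/+* (orange) endometrium, with library numbers, the mean as a line and the SD as a bar (n = 4). *Thra1PV/+* library 2 is the lowest of its genotype for 7 of the 10 genes and library 1 is the highest for 8, and for *Cd68* and *Csf1* the blue points spread more widely than the orange ones.

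*Csf1r*, at chr18:61100598-61132149 of GRCm38 on the plus strand, had 115, 21.4, 60.5 and 53.4 CPM in *Thra1PV/+* libraries 1 to 4 and 63.4, 35, 27.2 and 45.1 CPM in WT libraries 1 to 4. The highest and the lowest of the 8 values both came from *Thra1PV/+* endometrium. The log2 fold change was 0.55 (standard error, SE, 0.47, edgeR adjusted p = 0.771), and it was 0.12 without *Thra1PV/+* library 1. The gene overlaps *Hmgxb3* on the opposite strand and the microRNA gene *Mir6983*.

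The ligand gene *Csf1* (chr3:107741048-107760469, minus strand) did not share that order. It had 28.1, 58.4, 43.3 and 29.2 CPM in *Thra1PV/+* and 77.1, 14.6, 29.2 and 77.7 CPM in WT endometrium, so WT libraries 1 and 4 were highest and WT library 2 lowest, with all 4 *Thra1PV/+* values between them. Its log2 fold change was -0.32 (SE 0.52, edgeR adjusted p = 0.898), and 0.01 without WT library 1. *Il34*, the gene of the other ligand of the receptor, was low throughout, at 1.19 to 6.45 CPM in *Thra1PV/+* and 1.23 to 5.17 CPM in WT endometrium, with a log2 fold change of -0.06 (SE 0.63, edgeR adjusted p = 0.988).

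*Cd68* encodes a glycoprotein of late endosomes and lysosomes, which phagocytes carry in quantity and other cells can carry at lower levels. It lies at chr11:69664213-69666153 on the minus strand and had 60.2, 64.1, 75.3 and 51.0 CPM in *Thra1PV/+* endometrium, a narrow range, against 34.9, 18.5, 128.5 and 66.4 CPM in WT endometrium. The WT libraries held both the highest and the lowest value, and the log2 fold change was 0.01 (SE 0.51, edgeR adjusted p = 0.998). Without WT library 3 it was 0.67, and without WT library 2 it was -0.25. The summed level of 11 lysosomal genes was highest in WT library 3 as well (7325 CPM, against 4339 to 6319 CPM in the other 7 libraries), and its part in the *Cd68* value was not tested.

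*Adgre1* (chr17:57358691-57483527, plus strand) encodes the adhesion receptor recognised by the F4/80 antibody, and *Aif1* (chr17:35170991-35176068, minus strand) the actin-bundling protein Iba1. *Adgre1* had 46.9, 5.80, 24.5 and 18.6 CPM in *Thra1PV/+* and 24.6, 14.5, 16.2 and 20.1 CPM in WT endometrium. Its *Thra1PV/+* values spanned 8.08-fold and its WT values 1.70-fold. The log2 fold change was 0.34 (SE 0.53, edgeR adjusted p = 0.890) and turned to -0.17 without *Thra1PV/+* library 1. *Aif1* had 34.9, 10.2, 23.8 and 28.6 CPM in *Thra1PV/+* and 26.0, 13.2, 18.7 and 19.2 CPM in WT endometrium, with a log2 fold change of 0.34 (SE 0.37, edgeR adjusted p = 0.833). *Thra1PV/+* libraries 1 and 4 were above every WT library for *Aif1*, and library 2 was below all of them. In 2-sided exact permutation tests of the log2 CPM values, whose smallest possible p-value is 0.0286, p was 1.0 for *Adgre1* and 0.60 for *Aif1*.

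The complement genes *C1qa* (chr4:136895917-136898803), *C1qb* (chr4:136880129-136886187) and *C1qc* (chr4:136889804-136893065) lie side by side on the minus strand and were the most abundant of the 10 genes. *C1qa* had 195, 48.4, 137 and 122 CPM in *Thra1PV/+* and 158, 79.5, 80.2 and 125 CPM in WT endometrium. *C1qb* had 217, 45.3, 120 and 103 CPM in *Thra1PV/+* and 126, 66.8, 71.5 and 105 CPM in WT endometrium. *C1qc* had 176, 34.7, 100 and 84.9 CPM in *Thra1PV/+* and 116, 61.1, 66.3 and 92.5 CPM in WT endometrium. For all 3 genes, *Thra1PV/+* library 1 was the highest of the 8 libraries and library 2 the lowest, with the WT libraries between. The log2 fold changes were 0.18 (SE 0.41, edgeR adjusted p = 0.933) for *C1qa*, 0.39 (SE 0.43, edgeR adjusted p = 0.836) for *C1qb* and 0.24 (SE 0.44, edgeR adjusted p = 0.912) for *C1qc*. Without *Thra1PV/+* library 1 they were -0.07, -0.01 and -0.15.

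The sequence before the start of *C1qb* and *C1qc* is shown because these neighbouring genes kept the same order over the libraries. That of *Mrc1* is shown because its level followed theirs less closely over all libraries. Within *Thra1PV/+* endometrium alone, *Mrc1* ranked the libraries as they did. RefSeq windows were found for 7 of the 10 genes (GRCm38.p6), not for *C1qa*. Each sequence runs 5′ to 3′ on the strand of its gene and ends before the first transcribed base in both RefSeq and GENCODE M21. Capitals mark the purine-rich motif GAGGAA on either strand (TTCCTC on the other), known as a core bound by the myeloid factor encoded by *Spi1* and searched after these sequences had been seen.
*C1qb*, chr4:136886201-136886450, minus strand: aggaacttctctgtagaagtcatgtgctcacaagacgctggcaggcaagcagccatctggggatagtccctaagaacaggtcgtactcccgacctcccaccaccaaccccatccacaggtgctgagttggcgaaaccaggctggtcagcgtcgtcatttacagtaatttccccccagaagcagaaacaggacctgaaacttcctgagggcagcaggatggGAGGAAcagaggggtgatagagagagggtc
*C1qc*, chr4:136893066-136893164, minus strand: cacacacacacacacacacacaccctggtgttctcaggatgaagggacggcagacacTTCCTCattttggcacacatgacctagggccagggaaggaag
*Mrc1*, chr2:14229164-14229391, plus strand: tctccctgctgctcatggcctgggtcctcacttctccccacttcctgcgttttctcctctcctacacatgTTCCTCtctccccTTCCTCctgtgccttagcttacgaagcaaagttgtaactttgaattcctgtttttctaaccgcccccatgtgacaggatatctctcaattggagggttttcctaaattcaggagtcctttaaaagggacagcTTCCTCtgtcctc
The motif occurred 1 time in the 250 bases of *C1qb*, 1 time in the 99 bases of *C1qc* and 3 times in the 228 bases of *Mrc1*. Among 27025 promoters, 23.1%, 9.85% and 21.1% hold it in windows of those lengths. The half-site AGGTCA of nuclear receptors, searched on both strands, occurred 1 time before *C1qc* and not before *C1qb* or *Mrc1*, where 5.64% of promoters hold it in 99 bases. Of the other 4 windows found, that of *Cd68* held 1 GAGGAA and those of *Csf1*, *Cd163* and *Aif1* held 0, and that of *Aif1* held 1 AGGTCA. A match is a match of letters and not a measured site.

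**Figure D2:**
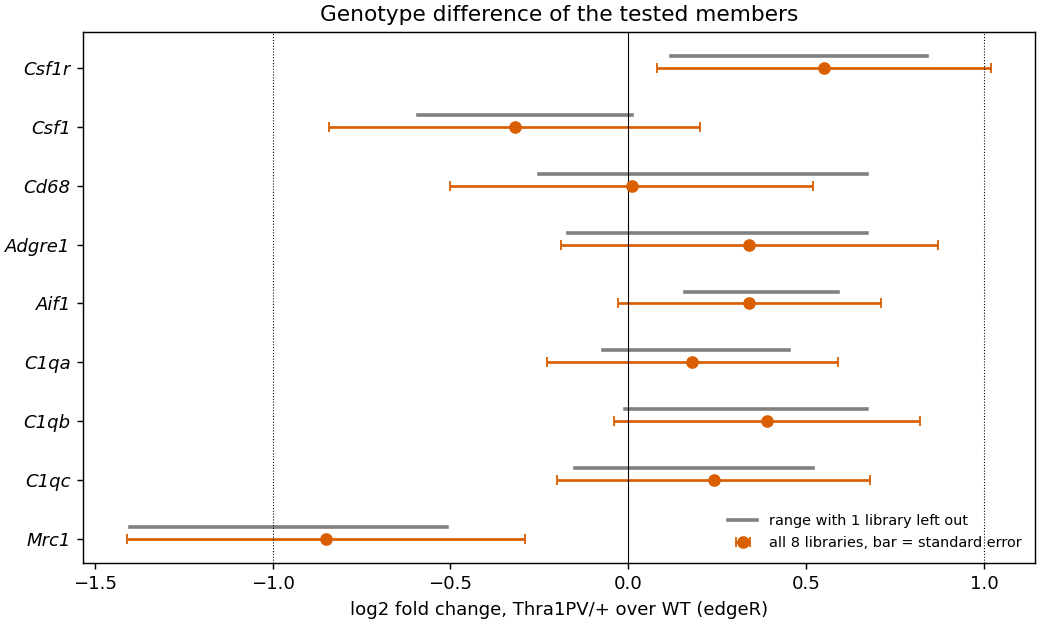
Log2 fold change of *Thra1PV/+* over WT (edgeR) with its standard error (orange) for the 9 tested genes, and the range when each of the 8 libraries was left out in turn (grey). Dotted lines mark a fold change of 2. Only *Mrc1* and *Csf1* lie below 0, and 6 of the 9 grey ranges cross 0.

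*Mrc1* (chr2:14229392-14332057, plus strand) was the member with the largest fold change. It had 16.5, 2.21, 8.68 and 5.48 CPM in *Thra1PV/+* and 23.1, 12.8, 10.4 and 12.9 CPM in WT endometrium. In CPM, *Thra1PV/+* libraries 2, 3 and 4 were below every WT library, and library 1 was above 3 of the WT libraries. In deposited TPM, a measure per transcript length, the genotypes did not overlap. The highest *Thra1PV/+* value was 5.92 (library 3) and the lowest WT value 7.57 (library 2). With limma on log2(TPM + 0.1), the difference was -1.2 with an adjusted p-value of 0.380. The log2 fold change was -0.85 (SE 0.56, edgeR adjusted p = 0.679, unadjusted p = 0.165), and it was -1.40 without *Thra1PV/+* library 1 and -0.51 without WT library 1. The exact permutation test on log2 CPM gave p = 0.171. The microRNA gene *Mir511* lies within *Mrc1* on the same strand.

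*Cd163* was close to absent. Its counts were 12, 2, 0 and 0 in *Thra1PV/+* and 23, 5, 2 and 2 in WT libraries 1 to 4, which is at most 0.439 CPM, and 5 of the 8 libraries were at or under the floor of 3 counts. Library 1 of each genotype had the most, and edgeR gave no fold change. The mean log2 CPM difference of *Thra1PV/+* from WT was -0.92 (exact permutation p = 0.286). It was -1.68 with a prior count of 0.5, so at these counts its size depends on the prior count.

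Levels between genes were compared in TPM, which counts transcripts per length. The deposited TPM have the form that quantile normalization gives, so they are not plain transcripts per length in each library. The deposited TPM values, averaged over the 8 libraries, were 157 ± 70.6 (SD, n = 8) for *C1qa*, 130 ± 74.6 for *C1qb*, 113 ± 61.2 for *C1qc*, 74.8 ± 33.0 for *Cd68*, 39.2 ± 14.0 for *Aif1*, 16.4 ± 9.53 for *Csf1r*, 15.3 ± 8.28 for *Csf1*, 8.62 ± 4.81 for *Adgre1*, 6.74 ± 3.40 for *Mrc1* and 0.0462 ± 0.0572 for *Cd163*. The steps from *C1qb* to *C1qc*, from *Aif1* to *Csf1r* and from *Mrc1* to *Cd163* held in 8 of 8 libraries. *C1qa* was above *C1qb* in 7 libraries and *Cd68* above *Aif1* in 7. *C1qc* was above *Cd68* in 6 libraries and *Csf1* above *Adgre1* in 6. *Csf1r* and *Csf1* changed places, each being higher in 4 of 8 libraries, as did *Adgre1* and *Mrc1*.

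Most of the macrophage genes rose and fell together from library to library. After centring each gene on its mean over the 8 libraries, *Csf1r* differed from the mean of the C1q genes by 0.19 (root mean square of log2 CPM), *Adgre1* by 0.23 and *Aif1* by 0.23, where the median of 12127 genes (mean log2 CPM 2 or higher) was 0.70. *Mrc1* differed by 0.68, *Csf1* by 0.97 and *Cd68* by 1.0. *Csf1* and *Cd68* had another order over the libraries. Within each genotype, *Mrc1* ranked the libraries as *Csf1r* did, but it was lower relative to *Csf1r* in *Thra1PV/+* endometrium. The genes outside the 10 that were nearest to the C1q genes were *C3ar1*, the receptor of a complement fragment, with 0.16, then *Evi2a*, the tetraspan gene *Ms4a7*, *Cd48* and *Pros1*, at 0.19 to 0.24. Nearest to *Csf1r* were the lipid carrier gene *Apoe* and *Cd48* with 0.14, then *Trem2*, *Ly86* and *C3ar1*, at 0.19 to 0.22. These are descriptions over 8 libraries that share depth and tissue composition.

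**Figure D3:**
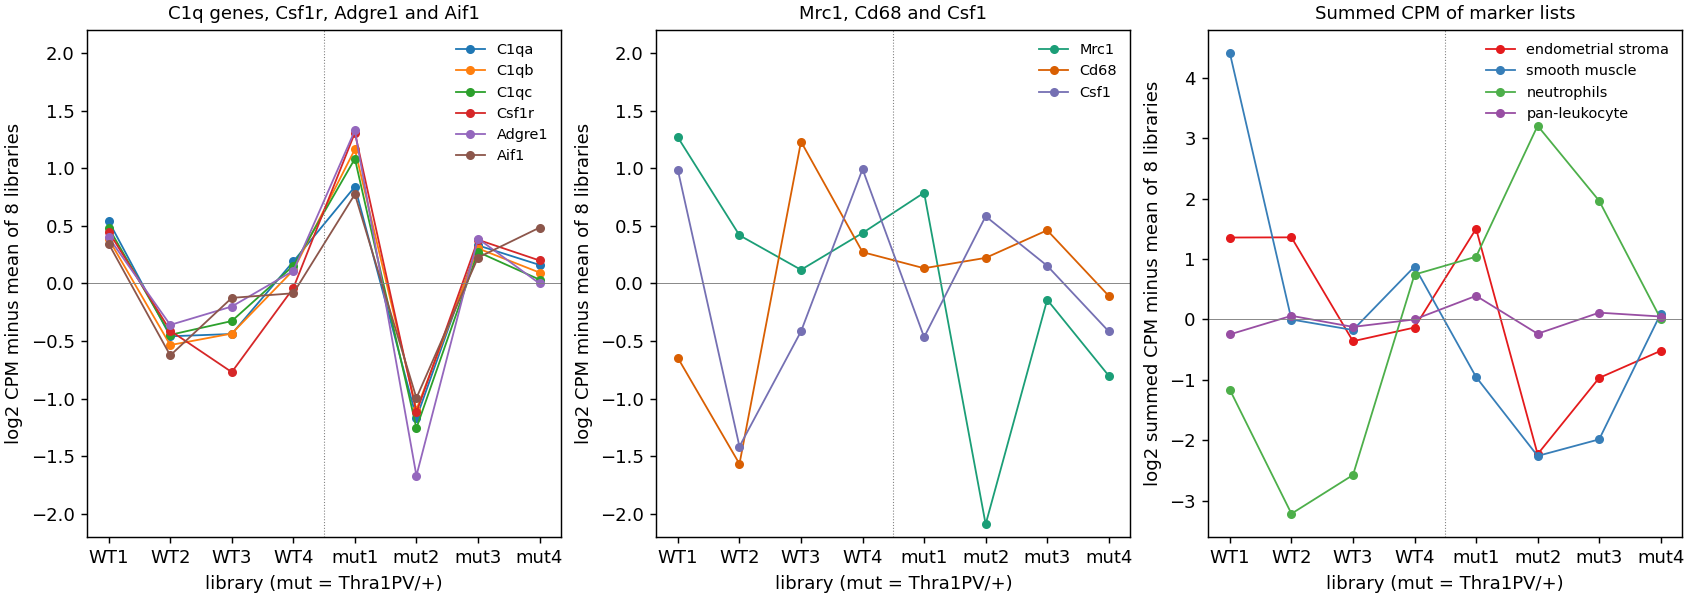
Centred log2 CPM in each library (left and middle; mut marks *Thra1PV/+*) and centred log2 summed CPM of 4 marker lists (right, a wider axis). The C1q genes, *Csf1r*, *Adgre1* and *Aif1* trace nearly one line with its peak in *Thra1PV/+* library 1 and its trough in library 2, *Mrc1*, *Cd68* and *Csf1* do not, and the stromal sum is also highest in *Thra1PV/+* library 1 and lowest in library 2.

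The shared order had counterparts in other cell types. The 8 stromal genes summed to 5963 CPM in *Thra1PV/+* library 1 and 449 CPM in library 2, the same extremes as for the C1q genes, although WT library 2 was high for stroma (5403 CPM) and low for C1q. The 7 genes found in all leukocytes varied less, from 332 to 512 CPM in *Thra1PV/+* and 329 to 408 CPM in WT endometrium, and again had a maximum in *Thra1PV/+* library 1. The part of tissue composition in the levels of the macrophage genes was not tested.

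To remove what the macrophage genes of a library share, each was set against *Csf1r* of the same library. *Mrc1* had 14.3%, 10.3%, 14.4% and 10.3% of the CPM of *Csf1r* in *Thra1PV/+* libraries 1 to 4 and 36.5%, 36.5%, 38.2% and 28.7% in WT libraries 1 to 4. The genotypes did not overlap, and the spread within each was small. The mean log2 ratio was -3.03 ± 0.27 (SD, n = 4) in *Thra1PV/+* and -1.52 ± 0.19 (SD, n = 4) in WT endometrium, a difference of -1.51, or 2.84-fold lower. Among all genes set against *Csf1r*, 2.73% were lower in *Thra1PV/+* without overlap, and the median difference was -0.42, beside a log2 fold change of 0.55 for *Csf1r* itself. The difference of *Mrc1* did not pass a test across all genes. With limma on the log2 ratios of 18173 genes, its adjusted p-value was 0.442 (unadjusted p = 0.0232, SE 0.66).

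That test was added after the ratios had been seen, and *Mrc1* was singled out among 8 ratios by its values, so the gap is a description and not a call. The test also has a limit of its own, because the scatter of *Csf1r* enters every ratio: on simulated counts it recovered fewer changed genes and made more false calls than edgeR's test. Its SE was 0.65 to 0.68 for all 8 ratios, although their SDs within a genotype ran from 0.05 to 1.49. The SE and p-value of *Mrc1* therefore do not measure the spread of its own ratios. The *Mrc1* ratios did not overlap either with the C1q genes as denominator, with a prior count of 0.5 or in deposited TPM. Leaving out a library cannot bring separate groups to overlap, so those fits bear only on the size: over all 11 other settings the difference was -1.60 to -1.25, with limma adjusted p-values of 0.209 to 0.985. With the mean of the C1q genes in place of *Csf1r*, the difference was -1.25 (limma adjusted p = 0.777). Without WT library 1, which was highest for smooth muscle and for *Mrc1*, it was -1.48 (limma adjusted p = 0.705).

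The other 7 ratios differed less between genotypes. *C1qc* was at 153% to 166% of *Csf1r* in *Thra1PV/+* and 175% to 244% in WT endometrium, without overlap, a log2 difference of -0.32 that is nearer 0 than the median of all genes (limma adjusted p = 0.898). The remaining 6 overlapped, with differences of -0.46 for *Csf1* to -0.03 for *Cd68*. The log2 ratio of *Cd68* ranged from -0.93 to 1.58 in *Thra1PV/+* and from -0.92 to 2.24 in WT endometrium, the widest spread of the 8 in WT.

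**Figure D4:**
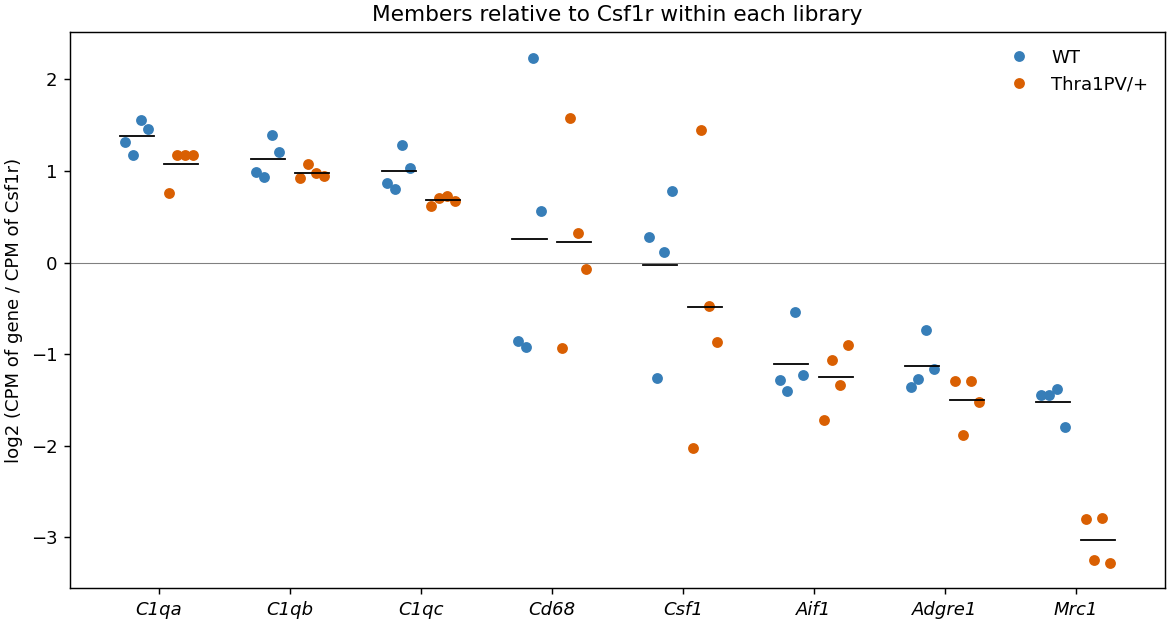
Log2 ratio of the CPM of each gene to the CPM of *Csf1r* in the same library, with WT in blue, *Thra1PV/+* in orange and the mean of 4 libraries as a line. For *Mrc1* the *Thra1PV/+* points lie between -3.28 and -2.79 and the WT points between -1.80 and -1.38, and the other genes overlap or nearly touch.

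The pathway around these genes was read from 8 lists holding 105 genes, of which 96 were tested. None was called by edgeR's test. DESeq2 called 10 of the listed genes, beside 3.58% of all genes it adjusted: *Runx1*, *Csf2rb*, *Csf2rb2*, *Csf3r*, *Ly6c2*, *Chil3* and *Cd80* were higher, and *Retnla*, *Lyve1* and *Cd209f* were lower, with adjusted p-values between 0.00178 for *Csf2rb2* and 0.0796 for *Cd80*. In edgeR's fit, at an unadjusted p-value under 0.05, 17 were higher and 3 lower in *Thra1PV/+* endometrium, where 9.77% of all tested genes had such a p-value in either direction.

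Among the 12 genes of growth factors and receptors, 3 had an unadjusted p-value under 0.05, beside 9.77% of all tested genes, and all 3 had log2 fold changes above 0. *Csf2rb* encodes the signalling chain shared by the receptors for GM-CSF and some interleukins, and *Csf2rb2* a closely related chain. *Csf2rb2* had 14.2, 11.8, 14.4 and 7.18 CPM in *Thra1PV/+* and 4.12, 3.20, 3.62 and 6.57 CPM in WT endometrium, without overlap, for a log2 fold change of 1.44 (SE 0.33, edgeR adjusted p = 0.141). *Csf2rb* had a log2 fold change of 1.57 (SE 0.43, edgeR adjusted p = 0.247). The pair are near-identical copies between which reads can be split, so each value is uncertain. The third was *Csf3r*, a receptor gene of neutrophils, whose 8 summed markers, *Csf3r* among them, ranged from 81.8 to 750 CPM in *Thra1PV/+* and from 8.76 to 136 CPM in WT libraries, with overlap and with 0 of 7 tested markers called by edgeR, and the part of neutrophils in the values of this list was not tested.

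Of 12 Fc receptor and ITAM signalling genes, 6 had an unadjusted p-value under 0.05, beside 9.77% of all tested genes, and all 6 had log2 fold changes above 0, with a list median of 0.66. *Syk*, the kinase that binds phosphorylated ITAM motifs, had 24.6, 33.4, 31.1 and 24.0 CPM in *Thra1PV/+* and 12.8, 13.8, 17.1 and 17.9 CPM in WT endometrium. The genotypes did not overlap, and the log2 fold change was 0.88 (SE 0.18, edgeR adjusted p = 0.102). *Fcgr3*, a low-affinity receptor for immunoglobulin G, had a log2 fold change of 0.98 (SE 0.31, edgeR adjusted p = 0.337). These genes are shared by macrophages, neutrophils and other myeloid cells. Neutrophil genes had a median of 2.08, with 5 of 7 tested above 0 at an unadjusted p-value under 0.05, although *Ly6g* was at -0.24. The genes of all leukocytes had a median of 0.42, with 1 of 7. The part of these cells in the Fc receptor values was not tested.

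Of 13 transcription factor genes, 4 had an unadjusted p-value under 0.05, beside 9.77% of all tested genes, and all 4 had log2 fold changes above 0. *Runx1*, a factor of blood cells and of epithelia, had 54.0 to 92.3 CPM in *Thra1PV/+* and 8.36 to 39.3 CPM in WT endometrium, for a log2 fold change of 1.63 (SE 0.50, edgeR adjusted p = 0.327). In *Thra1PV/+* library 2, where the C1q genes and *Csf1r* were lowest, *Runx1* had 92.3 CPM, its highest value. The 7 squamous epithelial genes, among them *Col17a1*, *Ivl* and *Trp63*, were all called higher in *Thra1PV/+* endometrium (summed 2390 to 3866 CPM, against 1.70 to 36.1 CPM), and their part in the value of *Runx1* was not tested.

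Of 16 tested resident and scavenger genes, 2 had an unadjusted p-value under 0.05, a share near the 9.77% of all tested genes, and both had log2 fold changes below 0. The list median was -0.29. *Lyve1*, a hyaluronan receptor of resident macrophages and of lymphatic vessels, had 1.10, 0.244, 0.327 and 0.525 CPM in *Thra1PV/+* and 14.5, 2.15, 0.318 and 1.13 CPM in WT endometrium. WT library 1 stood far above the rest, and the log2 fold change was -3.03 (SE 1.14, edgeR adjusted p = 0.435). *Folr2*, a folate receptor of resident macrophages, had 2.0, 1.08, 1.80 and 0.298 CPM in *Thra1PV/+* and 7.75, 1.37, 3.14 and 3.31 CPM in WT endometrium, for a log2 fold change of -1.59 (SE 0.68, edgeR adjusted p = 0.506). Both genes were highest in WT library 1, which had 12640 CPM of smooth muscle genes, and the part of that library's tissue in their values was not tested. *Marco*, a scavenger receptor gene, was at or under 3 counts in all 8 libraries.

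The 4 remaining lists held few genes with an unadjusted p-value under 0.05. Of 12 monocyte genes, 1 did: *Ly6c2*, a surface marker of inflammatory monocytes, had 5.93, 3.19, 18.9 and 14.2 CPM in *Thra1PV/+* and 2.37 to 3.45 CPM in WT endometrium, for a log2 fold change of 1.83 (SE 0.53, edgeR adjusted p = 0.284). *Ccl7*, a chemokine gene that attracts monocytes, had -2.44 (SE 1.11, edgeR adjusted p = 0.532) and was highest in WT library 4. Of 11 lysosomal and phagocytic genes, 1 did: *Ctss*, the protease cathepsin S of antigen-presenting cells, had 309, 103, 206 and 165 CPM in *Thra1PV/+* and 88.7, 70.5, 114 and 123 CPM in WT endometrium, for a log2 fold change of 0.98 (SE 0.33, edgeR adjusted p = 0.367). *Grn*, the progranulin gene, had -0.38 (SE 0.18, edgeR adjusted p = 0.561).

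Of 12 tested activation genes, 2 were higher and 1 was lower at an unadjusted p-value under 0.05, beside 9.77% of all tested genes in either direction. *Cd80*, 1 of the 2 higher genes, had a log2 fold change of 1.37 (SE 0.46, edgeR adjusted p = 0.367). *Chil3* and *Retnla*, both known from alternatively activated macrophages, had log2 fold changes of opposite sign, 2.45 (SE 0.74, edgeR adjusted p = 0.316) for *Chil3* and -3.49 (SE 1.18, edgeR adjusted p = 0.367) for *Retnla*. Both were scarce, at no more than 3.66 CPM for *Chil3* and 5.40 CPM for *Retnla* in any library. Of the 8 tested genes of the classical complement pathway besides C1q, 0 had an unadjusted p-value under 0.05. *C2* had a log2 fold change of 1.19 (SE 0.55, edgeR adjusted p = 0.547) and the protease gene *C1ra* -0.57 (SE 0.38, edgeR adjusted p = 0.688), and *C1rb* was at or under 3 counts in all 8 libraries.

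**Figure D5:**
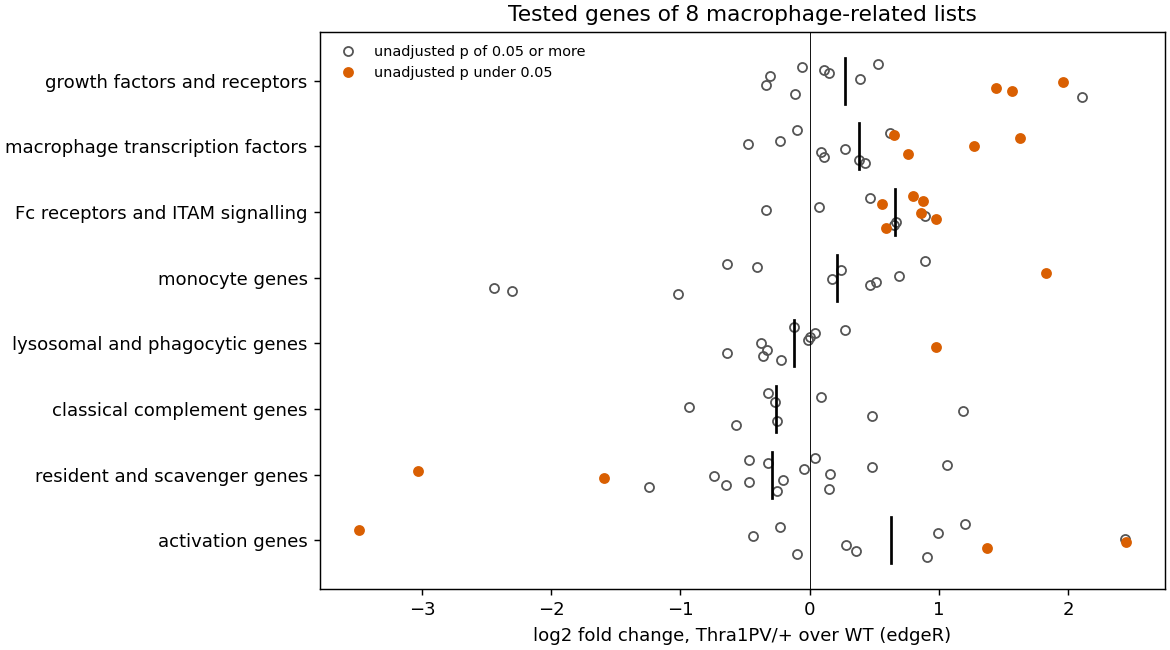
Log2 fold changes of *Thra1PV/+* over WT (edgeR) for the tested genes of 8 macrophage-related lists, one point a gene, with the list median as a black line and genes with an unadjusted p-value under 0.05 filled. The Fc receptor list has 6 filled points, all above 0, the resident list has 2, both below 0, and no gene of any list was called by edgeR.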

How the data were processed

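Laser-captured endometrium of 4 WT and 4 *Thra1PV/+* mice was sequenced as stranded mRNA libraries. The authors trimmed reads with Trimmomatic and ran Salmon against mm10. The deposited values are estimated counts for each gene, not normalized. The versions and the annotation release are not given in the sources used here. The deposited TPM values differ between libraries by at most 0.291 TPM at any rank, the form that quantile normalization gives. Of that table, 1 column that matches no sample was not used.

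Estimated counts were rounded and tested with edgeR 4.0.16 in R 4.3.3 (filterByExpr, minimum count 10 and minimum total 15; TMM; quasi-likelihood test; Benjamini-Hochberg over all tested genes). Log2 CPM used a prior count of 2. Single genes were also compared by exact permutation (2-sided, 70 arrangements of the libraries). Ratios to *Csf1r* were planned as a description. The limma 3.58.1 test on them was added after they were seen, and in simulation it recovered fewer changes and made more false calls than edgeR's test. DESeq2 1.42.0 was an alternative. No library had more than 0.00896% of its counts in identifiers lacking a symbol.

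The 10 genes and the lists were chosen with earlier results of these data known. Named are the 10 genes, per pathway list the called genes or else the 2 with the smallest p-values, *Il34*, called markers (up to 3 a list), genes at or under 3 counts, and the 5 genes nearest to the C1q genes and to *Csf1r*. *Csf3r*, *Retnla*, *Cd209f*, *S100a8*, *S100a9*, *Ly6g*, *Hmgxb3*, *Mir6983*, *Mir511*, *Spi1* and *Thra* are named outside that rule. Of the genes the rule names, 1 is not reported here. Positions are from GENCODE M21 (GRCm38).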

Additional observations from a re-analysis of the deposited data

Results flagged for a closer look

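Among 34 groups of 4 libraries examined (the log2 CPM of the 9 tested genes and the 8 log2 ratios to *Csf1r*, in each genotype), 2 had a library far from the other 3 by Dixon's criterion at 95%, where chance gives about 1.7. The log2 ratio of *Mrc1* to *Csf1r* in WT library 4 was -1.80, and the nearest WT library had -1.45. That library is the WT library closest to the *Thra1PV/+* values, so the gap between genotypes would be wider without it (difference -1.60). The log2 ratio of *C1qa* to *Csf1r* in *Thra1PV/+* library 1 was 0.76, and the other 3 libraries were at 1.18. Library 1 had the highest level of both genes.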

How the results depend on the processing

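No setting called any of the macrophage genes. Over all genes, the 180 calls became 791 with DESeq2, 81 with at least 10 counts in every library, 311 with limma voom and quality weights, 119 at an adjusted p of 0.05 or less, 1775 at an unadjusted p under 0.05, and 81 to 167 with 1 library left out. The macrophage median of 0.24 moved by less than the spread between libraries in every setting, but ran from -0.07 (without *Thra1PV/+* library 1) to 0.52 with 1 library left out. With 1 library left out, the log2 fold changes ran from -0.25 to 0.67 for *Cd68*, -0.17 to 0.67 for *Adgre1*, -0.59 to 0.01 for *Csf1*, -0.07 to 0.45 for *C1qa*, -0.01 to 0.67 for *C1qb* and -0.15 to 0.52 for *C1qc*, so each of these changed sign. *Csf1r*, *Aif1* and *Mrc1* did not, in any setting. *Mrc1* had an unadjusted p under 0.05 in 5 and *Aif1* in 1 of 18 alternatives, with adjusted p-values of at least 0.354 and 0.703. These alternatives reuse the same libraries and are not independent. In the main edgeR fit 9.77% of all tested genes had such a p-value, and the share in each alternative is not given here.

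Among the ratios to *Csf1r*, differences ran from -0.48 to 0.63 for *Cd68*, -1.10 to 0.05 for *Csf1* and -0.26 to 0.05 for *Aif1* with 1 library left out, and were 0.23 for *Cd68* and 0.12 for *Aif1* with the C1q genes as denominator. The cause was not tested.

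With replicate number as a block, 82 genes and 0 macrophage genes were called. Same-numbered libraries share only a number: their deviations correlated at 0.269, -0.436, 0.340 and -0.159 over the tested genes, so the block is no pairing of animals.

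With 4 libraries a genotype and standard errors up to 0.56 on the log2 scale, the data set no narrow limit on a change in any of these genes, and smaller changes were not detectable at this number of libraries.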
